A study of Oryza sativa with 2 samples.

Results

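The light-harvesting proteins of photosystem II were described through 10 nuclear loci of rice, chosen by locus identifier: 3 copies of Lhcb1, 1 locus each for Lhcb2, Lhcb3, Lhcb4, Lhcb5 and Lhcb6, and the loci of PsbS1 and PsbS2. Of these, 9 were among the 38511 loci listed in both libraries. LOC_Os11g13890, the locus of Lhcb5, was listed in neither library and was therefore not analysed here. Polyadenylated RNA came from whole seedlings of the japonica cultivar Nipponbare, wild type and 3 weeks old, grown hydroponically in Yoshida solution with 10 h of light (800 μmol of photons per square metre each second) and 14 h of darkness. The study set N6-methyladenine in DNA beside gene expression, and its RNA-seq side is 1 group of 2 libraries, called library 1 and library 2 here. No treated or mutant group exists in it, so the data give the level of each transcript, the order of the levels and how closely 2 measurements of the same kind of seedling repeated each other. The labels do not say whether the libraries came from separate plants, and their spread may therefore be technical.

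Light-harvesting proteins bind chlorophyll and carotenoids in the thylakoid membrane and pass excitation energy to the photosystem reaction centres. Lhcb1, Lhcb2 and Lhcb3 form the trimers of the major antenna, LHCII. Lhcb4, Lhcb5 and Lhcb6 are the minor antenna proteins, present as monomers between the trimers and the photosystem II core. PsbS is a related membrane protein that responds to acidification of the thylakoid lumen and is needed for the fast, energy-dependent dissipation of excess light as heat. All of these proteins are encoded in the nucleus and imported into the chloroplast, and their transcripts are known as markers of green tissue.

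The identifiers place the loci on chromosomes 1, 3, 4, 7, 9 and 11. Chromosome 1 carries 2 of the Lhcb1 copies and PsbS1, chromosome 4 carries Lhcb6 and PsbS2, and chromosome 7 carries Lhcb3 and Lhcb4. The protein names came with the choice of the loci, because the deposited files hold identifiers alone and the supplied RefSeq table (assembly ASM3414082v1) matched 0 of the 10. That table holds 4 genes with synonyms of light-harvesting proteins, on chromosomes 1, 3, 7 and 9, but nothing in it ties them to these identifiers. Exon structure and coordinates are not given for the same reason. The labelled tissue, a whole plant with shoot and root, could not be checked against markers of leaf and root, since 0 of those marker names matched a listed locus.

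Levels are in FPKM, fragments scaled to transcript length and to the number of fragments in the library, which puts genes on a common scale. The transcript lengths used are not given. Each SD below covers the spread between the libraries, not differences in how well each gene was measured. Expressed loci are those whose mean over both libraries reached 1 FPKM, which 19187 loci did. All FPKM values of a library summed to 670155 in library 1 and 651935 in library 2. Sequencing depth is unknown, so no counting interval is given.

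Transcripts of the photosystem II antenna were among the most abundant in the seedlings. Of the 9 listed loci, 4 were among the 10 highest loci of the transcriptome and 8 were among the highest 60, while PsbS2 stood at rank 664. Together the 9 loci made up 5.40% of all FPKM of library 1 and 4.52% of library 2 (4.96% ± 0.62, SD, n = 2, as for every mean ± SD that follows). The 7 Lhcb loci accounted for 4.78% ± 0.61 and both PsbS loci for 0.180% ± 0.010. In library 1 the 9 loci summed to 36196 FPKM, a total that the 28083 lowest loci together did not exceed, of which 14848 were above 0. In library 2 they summed to 29484 FPKM, against the 27260 lowest loci, of which 13860 were above 0.

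**Figure D1:**
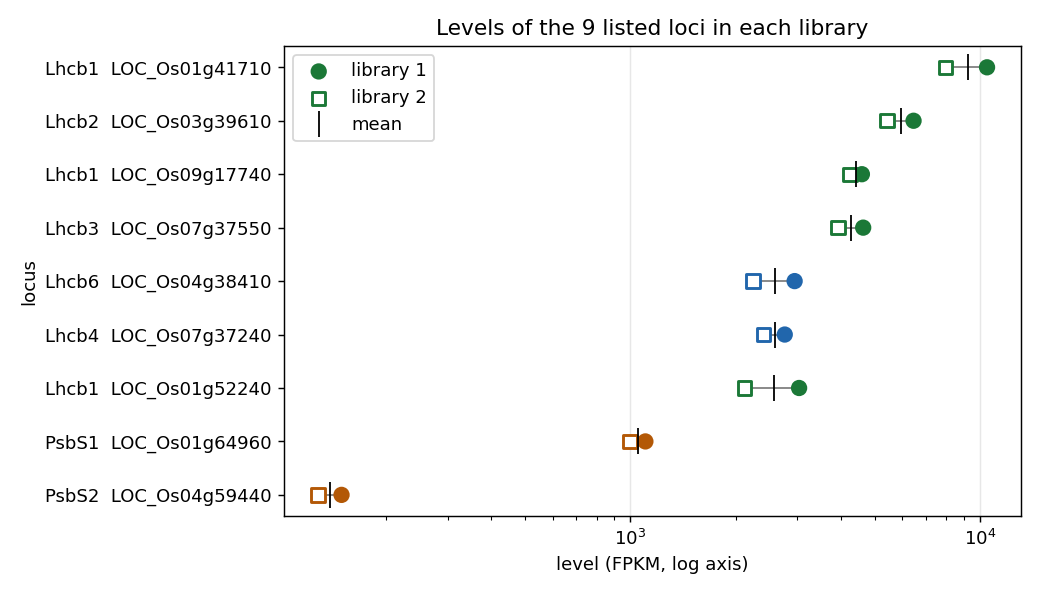
Level of each of the 9 listed loci in FPKM (log axis), with a filled circle for library 1, an open square for library 2 and a bar for their mean. Colours mark Lhcb1 to Lhcb3 (green), Lhcb4 and Lhcb6 (blue) and PsbS (orange); library 2 is the lower at every locus, and the loci run from 138 FPKM for PsbS2 to 9240 FPKM for the highest Lhcb1 copy.

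Among the trimer-forming proteins, the Lhcb1 copy LOC_Os01g41710 was the highest. It was listed at 10488 FPKM in library 1, where it was the first of all loci, and at 7991 FPKM in library 2, where it was the fifth. Its mean of 9240 ± 1766 FPKM was 932 times the median of the expressed loci, which was 9.91 FPKM. It alone held 28.0% ± 1.3 of the FPKM of the 9 loci.

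The second Lhcb1 copy, LOC_Os09g17740, was listed at 4598 and 4252 FPKM, with a mean of 4425 ± 245. It repeated most closely of the 9 loci, with a coefficient of variation of 5.53%. The third copy, LOC_Os01g52240, was listed at 3040 and 2117 FPKM, with a mean of 2579 ± 653. Its coefficient of variation of 25.3% was the highest of the 9. The ranges of the 3 copies over the libraries did not overlap, so their order was the same in both. Values per copy depend on how reads matching several copies were divided, which is not given in the sources used here.

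Lhcb2, LOC_Os03g39610, is the LHCII protein whose phosphorylation in Arabidopsis drives the movement of antenna between the photosystems. It was listed at 6462 and 5419 FPKM, with a mean of 5941 ± 738. Lhcb3, LOC_Os07g37550, which in Arabidopsis belongs to the trimers attached through the minor antenna, was listed at 4637 and 3926 FPKM, with a mean of 4282 ± 503. Lhcb2 was above Lhcb3 in both libraries without overlap, by 1.39 times in library 1 and 1.38 times in library 2.

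The minor antenna proteins had lower levels than Lhcb2 and Lhcb3. Lhcb4, LOC_Os07g37240, known as CP29, was listed at 2766 and 2409 FPKM, with a mean of 2587 ± 252. Lhcb6, LOC_Os04g38410, known as CP24, was listed at 2952 and 2245 FPKM, with a mean of 2598 ± 500. Their order turned between the libraries: Lhcb4 was at 0.937 times Lhcb6 in library 1 and at 1.07 times Lhcb6 in library 2.

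Of the PsbS loci, PsbS1 was far the higher. PsbS1, LOC_Os01g64960, was listed at 1104 and 997 FPKM, with a mean of 1051 ± 76, and ranked at 56 among all loci. PsbS2, LOC_Os04g59440, was listed at 149 and 128 FPKM, with a mean of 138 ± 15. PsbS2 was thus still 14.0 times the median of expressed loci, and 96.5% of expressed loci were lower. PsbS1 was 7.40 times PsbS2 in library 1 and 7.82 times PsbS2 in library 2 (7.61 ± 0.29), and it made up 88.4% ± 0.4 of the PsbS total.

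**Figure D2:**
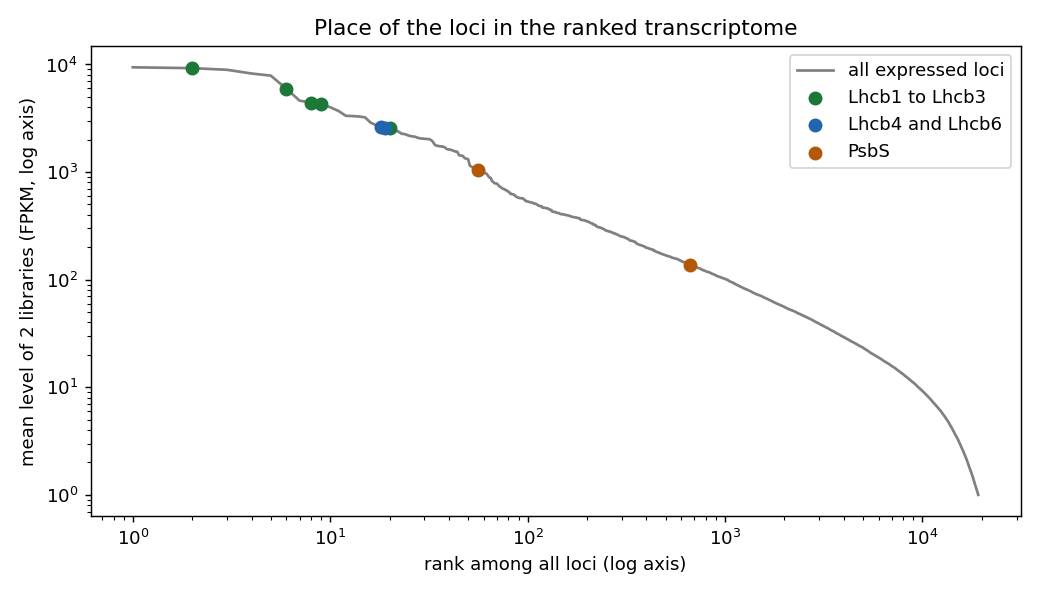
Mean level in FPKM (log axis) against rank among all loci (log axis) for the 19187 expressed loci, drawn as a grey line, with the 9 listed loci as points coloured by role. By rank on the mean, the Lhcb loci lie between ranks 2 and 20, PsbS1 at rank 56 and PsbS2 at rank 664. In library 2 alone, Lhcb6 was at rank 23 and the Lhcb1 copy LOC_Os01g52240 at rank 26.

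In descending order of the mean, the levels formed 6 steps. The Lhcb1 copy LOC_Os01g41710 was first, Lhcb2 second, and the Lhcb1 copy LOC_Os09g17740 and Lhcb3 shared the next step because their ranges overlapped. Lhcb6, Lhcb4 and the Lhcb1 copy LOC_Os01g52240 formed the fourth step, with means between 2579 and 2598 FPKM and overlapping ranges. Their order in library 1 was the reverse of that in library 2. PsbS1 and then PsbS2 followed as steps of their own.

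Of the 8 pairs of neighbours in this order, 5 had ranges that did not overlap and 3 had ranges that did. Over all 36 pairs of the 9 loci, the order swapped between the libraries in 4. The ranges of a swapped pair overlap by definition, and no other pair had overlapping ranges. The gap between PsbS1 and PsbS2 was the widest, with 607 other loci of the transcriptome ranked between them. Between the fourth step and PsbS1 there were 35 other loci.

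The composition of the Lhcb transcript pool was nearly the same in both libraries. Lhcb1 made up 51.9% of the FPKM that the 7 listed Lhcb loci held in library 1 and 50.6% in library 2. Lhcb2 made up 18.8% ± 0.4, Lhcb3 13.6% ± 0.4, Lhcb4 8.20% ± 0.41 and Lhcb6 8.18% ± 0.38. These shares leave out Lhcb5 and would each be lower with it.

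**Figure D3:**
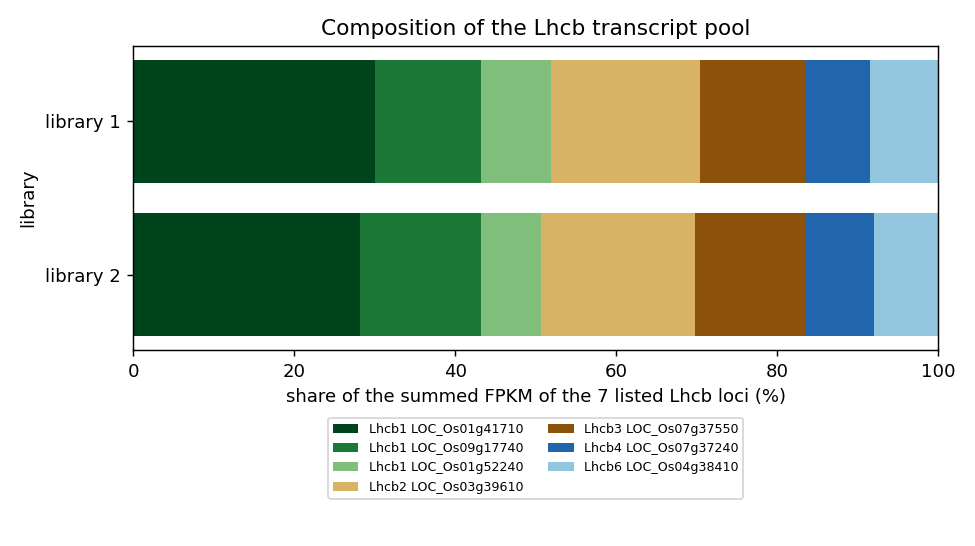
Share of the summed FPKM of the 7 listed Lhcb loci held by each locus, in percent from 0 to 100, with 1 bar per library. The 3 Lhcb1 copies (greens) make up 51.9% of the bar in library 1 and 50.6% in library 2. The shares of Lhcb2, Lhcb3, Lhcb4 and Lhcb6 differ little between the bars. Of the Lhcb1 sum, LOC_Os09g17740 held 25.4% in library 1 and 29.6% in library 2, while LOC_Os01g41710 and LOC_Os01g52240 held less in library 2.

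Ratios taken within a library do not depend on its depth. The trimer-forming loci summed to 5.11 times the listed minor antenna loci in library 1 and 5.09 times in library 2 (5.10 ± 0.01), while the sum of the trimer loci itself was 29226 FPKM in library 1 and 23705 FPKM in library 2. Lhcb1, summed over its copies, was 2.80 and 2.65 times Lhcb2 (2.73 ± 0.11) and 3.91 and 3.66 times Lhcb3 (3.78 ± 0.18). It was 6.55 and 5.96 times Lhcb4 (6.26 ± 0.42) and 6.14 and 6.40 times Lhcb6 (6.27 ± 0.18). These ratios to Lhcb4 and Lhcb6 moved in opposite directions between the libraries. The 7 Lhcb loci together were 27.9 and 25.2 times both PsbS loci.

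The split of the Lhcb1 sum among its copies differed between the libraries. LOC_Os01g41710 held 57.9% of the Lhcb1 sum in library 1 and 55.6% in library 2. LOC_Os09g17740 held 25.4% and 29.6%, and LOC_Os01g52240 held 16.8% and 14.7%. The ratio of LOC_Os09g17740 to LOC_Os01g52240 was 1.51 in library 1 and 2.01 in library 2, a 1.33-fold change that was the highest among the 36 pairs. LOC_Os01g41710 was 2.28 and 1.88 times LOC_Os09g17740, and 3.45 and 3.77 times LOC_Os01g52240. At the other end, the ratio of LOC_Os01g41710 to Lhcb6 was 3.55 and 3.56. The ratio moved by less than 1.1-fold in 17 of the 36 pairs. Lhcb1 copies of plants have very similar coding sequences, and how the authors' counting divided reads that match several copies is not given in the sources used here, so the split among the copies is uncertain.

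All 9 loci were lower in library 2 than in library 1, and 0 of the 9 were 2-fold apart. Ratios are given as log2 of library 2 over library 1 after adding 1 FPKM to each value, and with 1 library on each side they carry no test. Across the expressed loci 6.75% were 2-fold apart in either direction, and with 9 loci a count of 0 says little beside that share. Being lower in library 2 by any amount was common among abundant loci: it held for 47.1% of the expressed loci, for 68.5% of the 111 loci at 500 FPKM or more and for 59.0% of the 910 loci at 100 to 500 FPKM. The 8 listed loci other than PsbS2 belong to the former class of abundant loci and PsbS2 to the latter. These 8 were also among the 60 loci at 1000 FPKM or more, a class added after seeing the data, of which 76.7% were lower in library 2. Each of these shares counts the listed loci themselves.

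The ratio was furthest from 0 at the Lhcb1 copy LOC_Os01g52240, at -0.52, followed by Lhcb6 at -0.39 and LOC_Os01g41710 at -0.39. Lhcb2 stood at -0.25, Lhcb3 at -0.24, PsbS2 at -0.22 and Lhcb4 at -0.20. PsbS1 stood at -0.15 and the Lhcb1 copy LOC_Os09g17740 at -0.11, so the Lhcb1 copies held both ends of the range. The uncertain split of reads among the copies applies to both of these ends. The median over the 9 loci was -0.24, beside -0.10 over the 103 other loci at 500 FPKM or more and 0.02 over all expressed loci. The SD over the 111 abundant loci was 0.43, and 9.91% of them had a lower ratio than LOC_Os01g52240. No test sets the 9 loci apart from other abundant loci.

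**Figure D4:**
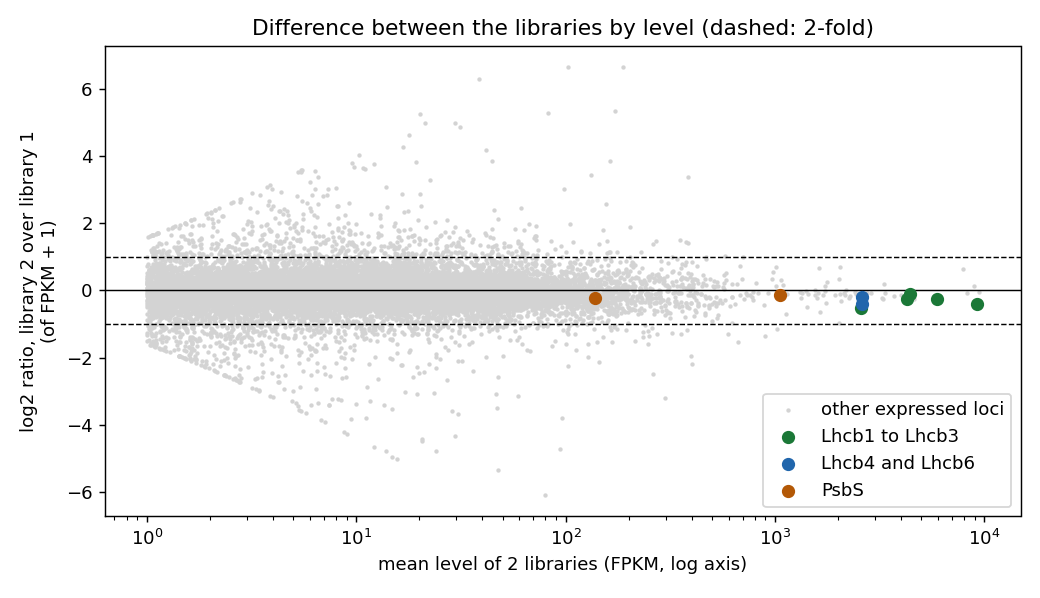
Log2 ratio of library 2 over library 1 (of FPKM + 1) against the mean level in FPKM (log axis) for the expressed loci in grey and the 9 listed loci in colour. Dashed lines mark a 2-fold difference; the 9 points lie between -0.52 and -0.11, below 0 and inside the dashed lines.

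As sums, the 7 Lhcb loci in library 2 reached 0.812 times their value in library 1, and both PsbS loci reached 0.898 times. The sum over all loci reached 0.973 times. The trimer-forming and the minor antenna loci stood close together, at 0.811 and 0.814 times. The time of day at which the plants were collected is not given in the labels, and its part in these levels was not tested.

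Each member was higher than every one of its neighbours in identifier order. Loci were ordered by the number in their identifier, which increases along a chromosome by the naming convention of rice loci, and the 10 listed loci on each side of each member were taken. Of these 180 neighbours, 106 were expressed, or 58.9%, beside 50.1% of all loci with a chromosome number. The neighbours had a median of 2.25 FPKM and a highest level of 466 FPKM. A level of 100 FPKM or more was reached by 4 of them, 2.22%, beside 2.66% of all such loci. With so few loci at that level, any locus as abundant as these would be likely to exceed its neighbours. The surroundings of other abundant loci were not compared.

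Lhcb2 stood out furthest from its surroundings, at 453 times the highest of its 20 neighbours, 10 of which were listed at 0 in both libraries. The Lhcb1 copy LOC_Os09g17740 was 117 times its highest neighbour and LOC_Os01g41710 was 98.0 times its highest neighbour. Lhcb3 was 83.2 times the highest of its own. PsbS1 was 12.0 times, the Lhcb1 copy LOC_Os01g52240 10.5 times, Lhcb6 8.75 times and Lhcb4 5.56 times the highest neighbour, and PsbS2 was only 1.66 times. Lhcb3 and Lhcb4 lie on the same chromosome with 27 listed loci between them, so the 10 neighbours on either side did not reach from one to the other.

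**Figure D5:**
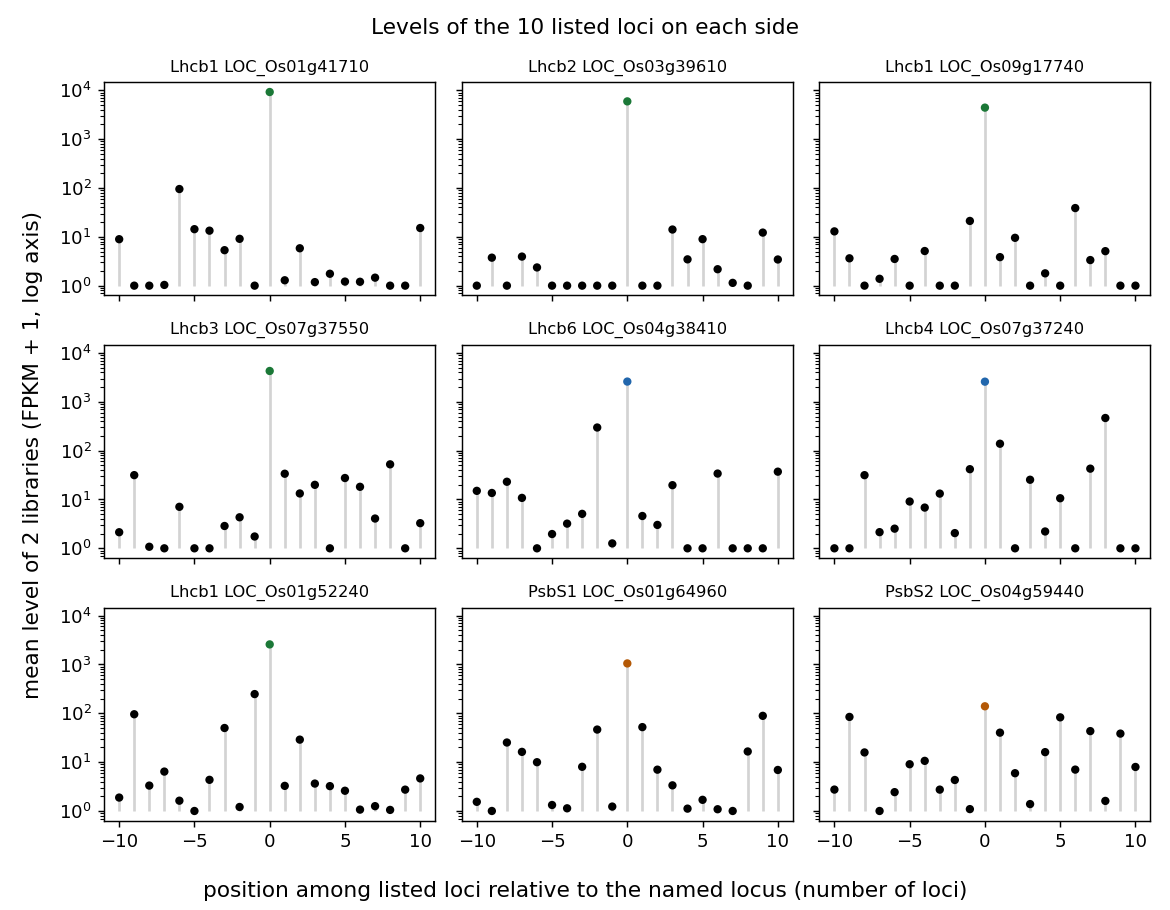
Mean level plus 1 FPKM (log axis) of each of the 9 listed loci, at position 0 in colour, and of the 10 listed loci on each side in black, by their order in the identifiers. Each named locus exceeds all of its 20 neighbours, by 1.66 times for PsbS2 and by 453 times for Lhcb2.

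The loci of most similar pattern were sought among all other loci, by the Euclidean distance of log2(FPKM + 1) over the 2 libraries. For the highest member, LOC_Os01g41710, this was LOC_Os01g10400, at 9581 and 9233 FPKM and a distance of 0.25. For the lowest, PsbS2, it was LOC_Os09g28510 on chromosome 9, at 151 and 126 FPKM and a distance of 0.03. Over 2 libraries such likeness is mainly one of level. Lists of photosystem I light-harvesting proteins and of other nuclear photosystem II subunits were not analysed, because 0 of their names could be matched to a listed locus.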

How the data were processed

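Both deposited files give 1 FPKM value for each locus, per the file headers, and the submitters' processing notes name Cufflinks, without a version. Per the labels' protocols, poly(A) RNA went into an NEBNext Ultra preparation. Aligner, genome build, annotation and strand setting were not given in the sources used here. No count model was used, because FPKM has length and depth divided out, and the depth of each library is unknown.

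Here, the 10 loci were matched by identifier and summarised as value per library, mean and SD. Ratios used log2(FPKM + 1). Neighbours in the order of levels were called apart where their ranges over both libraries did not overlap. With 1 group of 2 libraries no hypothesis test was made. The rule for named loci was all members, plus the 1 other locus closest to the highest and to the lowest member. LOC_Os11g13880 was added after its values were seen. The members and lists were chosen with earlier results of these data known. Scaling, ranks and neighbour search were tested on simulated data. Alternatives were other pseudocounts, filters, scalings and single libraries. Python 3.11.15, NumPy 2.4.6 and pandas 2.3.3 were used.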

Additional observations from a re-analysis of the deposited data

How the results depend on the processing

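The 9 log2 ratios kept their sign under the other pseudocounts and scalings, but the pseudocounts could not have changed it. Adding the same constant to both values cannot reverse a ratio, and at these levels it hardly moves one. At PsbS2, the lowest of the 9, the ratio was -0.223 with 1 FPKM added and -0.225 with none. The pseudocounts therefore say nothing about stability of the sign or of the 2-fold count. Each scaling moved all 9 ratios by nearly the same amount, so it tests their shared shift and not each locus. Filters on low values could not change the ranks or ratios of loci at these levels, and with 2 libraries a single one cannot move a mean by more than the SD, so neither says anything about stability. Ratios ranged from -0.48 to -0.07 with the libraries rescaled to a common sum and from -0.55 to -0.14 with median-ratio scaling, all 9 below 0, and 0 of 9 were 2-fold apart under these scalings and the other pseudocounts. The order of the 9 loci was the same under both scalings, and library 1 alone left 4 of 9 and library 2 alone 7 of 9 in the same place. The share of 4.96% ranged from 4.52% to 5.40% in single libraries and was 6.50% with the highest 100 loci left out of the total unless listed members, which shrinks the total by construction. With the highest Lhcb1 copy in place of the sum of 3, Lhcb1 over Lhcb2 was 1.55 and the ratio of trimer-forming to minor antenna loci was 3.75, since fewer loci enter. The class at 1000 FPKM or more, added after seeing the data, gave a median ratio of -0.12, as did the class at 500 FPKM or more. With 5 neighbours on each side, also added after seeing the data, 54 of 90 were expressed. Of these 90, 3 reached 100 FPKM or more, or 3.33%. That was above the 2.66% of all loci with a chromosome number, whereas 10 neighbours on each side gave 2.22%, below it. No paired analysis was possible because both libraries share the group. Counting error could not be stated, as the depth is unknown.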

Other observations

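LOC_Os11g13880, chosen after its values were seen, is the listed locus just before the place of LOC_Os11g13890, the Lhcb5 locus, on chromosome 11. Library 1 listed it at 2022 FPKM and library 2 at 1836 FPKM, a mean of 1929 ± 132 (SD, n = 2) and rank 33 among all loci. Its level lay between those of PsbS1 and of the step formed by Lhcb4, Lhcb6 and the lowest Lhcb1 copy. Its log2 ratio of -0.14 lay within the range of the 9 listed loci. That ratio was also near the median of -0.12 over the 111 loci at 500 FPKM or more, so it is ordinary for an abundant locus. The next listed locus after that place, LOC_Os11g13900, was listed at 0 in both libraries. Whether reads of Lhcb5 entered the value of LOC_Os11g13880 was not tested.

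The values of LOC_Os11g13880 were written with up to 10 significant digits. Those of the 9 listed loci had at most 6, as did those of 671 of the 1021 loci at 100 FPKM or more, or 65.7%. How values with more digits were made is not given in the sources used here.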
